A study of Arabidopsis thaliana with 42 samples.

Results

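The transcripts described here belong to 4 genes linked to copper in Arabidopsis thaliana, each read by 1 of the 22746 probe sets tested on Affymetrix ATH1 arrays. They are CITF1 (AT1G71200), CCS (AT1G12520), a cytochrome c oxidase subunit (AT3G15640) and a copper amine oxidase (AT3G43670). They were chosen by name from the zinc comparisons of these same arrays, for changes in opposite directions at low and at excess zinc, so their zinc responses are given below as descriptions with a standard error and with no test. What was tested is the difference between genotypes and between tissues at normal zinc, which was not itself the change they were chosen for. The zinc changes were taken against these same normal zinc arrays, by tissue and genotype, so these tests are not fully independent of the choice.

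The study compared the bzip19 bzip23 double mutant, a T-DNA insertion line, with wild type of the same ecotype (Col-0), at low (0.05 µM), normal (2 µM) and excess (25 µM) zinc sulfate. Plants were 4 weeks old: all had 3 weeks of hydroponics at normal zinc, followed by 1 week at the supply named. Each of the 6 root groups held 4 arrays and each of the 6 shoot groups 3 arrays, 42 in all, and 1 sample pooled the roots or the shoots of 6 plants grown in 2 containers. Nothing in the labels says whether replicate arrays stem from separate cultures. Errors and p-values therefore measure the spread between these samples, which may be technical. bZIP19 and bZIP23 are related transcription factors of the zinc deficiency response, and the mutant is 1 line, with the insertions present in all of its cells.

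Plants need copper for electron transport, for the removal of superoxide and for oxidases of the cell wall, and they change gene expression when it is scarce. CITF1 is a basic helix-loop-helix factor that acts with the regulator SPL7 in the response of Arabidopsis to copper deficiency, and its transcript accumulates when copper is scarce. The same response produces small RNAs, the copper microRNAs, that target transcripts of dispensable copper proteins, among them CCS, AT3G15640 and the blue copper protein plantacyanin. Neither copper content nor microRNAs were read by these arrays.

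Values are RMA values, that is, background-corrected, between-array normalised probe set values on the log2 scale, so that a difference of 1 is a doubling. The array medians lay between 6.87 and 6.99. The transcript of bZIP19 (AT4G35040) was at 4.46 in mutant roots and at 9.86 in wild type roots at normal zinc (log2 difference -5.40, limma adjusted p = 3.16e-17), and at 4.52 in mutant shoots and 8.95 in wild type shoots (log2 difference -4.43, adjusted p = 4.91e-12). The zinc transporter gene ZIP9 (AT4G33020) rose at low zinc in wild type roots by 0.86 on the log2 scale (adjusted p = 0.0112), and its difference in mutant roots was -0.02 (adjusted p = 1). ZIP9 also rose at excess zinc, by 1.14 in mutant roots (adjusted p = 3.54e-05) and by 1.01 in wild type roots (adjusted p = 8.97e-05), so it does not order the supplies. Of the photosynthetic tissue markers 3 of 18 were measured, with group means of 5.41 to 8.56 in roots and 12.99 to 14.06 in shoots, and of the root tissue markers 2 of 13, with group means of 11.38 to 13.25 in roots and 4.72 to 7.07 in shoots. The markers thus followed the tissue labels. A pair of arrays stood apart from their groups, the second of wild type roots at excess zinc and the first of wild type shoots at low zinc, with mean correlations of 0.980 and 0.979 with the rest of their group.

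The files carry date labels. Low zinc roots have a different label from normal and excess zinc roots, and excess zinc shoots a different one from low and normal zinc shoots. Low zinc and date therefore cannot be told apart in roots, nor excess zinc and date in shoots, and the tissues carry different labels throughout. Each comparison of mutant with wild type lies within 1 date label.

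CITF1, the regulator, had the widest range of group means of the 4 genes, and almost all of it lay in roots. In mutant roots the CITF1 values were 7.17, 7.60, 7.77 and 7.45 at low zinc, 5.87, 6.32, 5.78 and 6.41 at normal zinc and 5.40, 5.63, 5.34 and 5.20 at excess zinc. In wild type roots they were 7.45, 7.82, 8.30 and 8.25 at low zinc, 6.15, 6.12, 6.23 and 6.58 at normal zinc and 5.40, 5.57, 5.41 and 5.56 at excess zinc. In both genotypes every low zinc root array was above every normal zinc array and every excess zinc array was below them. CITF1 at low against normal zinc was higher by 1.40 (SE 0.17) in mutant roots and by 1.69 (SE 0.17) in wild type roots on the log2 scale, or 3.22-fold in wild type. At excess zinc the difference from normal zinc was -0.70 (SE 0.17) in mutant roots and -0.78 (SE 0.17) in wild type roots.

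In shoots CITF1 showed no such pattern. Mutant shoots had CITF1 values of 5.41, 5.63 and 5.63 at low, 5.27, 5.39 and 5.27 at normal and 5.50, 5.18 and 5.40 at excess zinc, and wild type shoots had 5.53, 5.61 and 5.51 at low, 5.69, 5.53 and 5.13 at normal and 5.42, 5.20 and 5.48 at excess zinc. All 6 shoot means lay between 5.31 and 5.56, a range that also held the excess zinc means of roots, 5.40 for mutant and 5.49 for wild type. The zinc differences in shoots ran from -0.08 to 0.25 (SE 0.13), and only mutant shoots at low zinc, whose lowest value of 5.41 was just above the highest of 5.39 at normal zinc, were apart from their normal zinc arrays. Detection calls were not used here, so whether CITF1 was above background at these levels was not tested. Ranked over the 12 groups, CITF1 was highest in low zinc roots, where mutant at 7.50 ± 0.26 and wild type at 7.96 ± 0.40 (SD, n = 4 each) overlapped. A gap of 1.23 separated them from normal zinc roots, where mutant averaged 6.09 ± 0.32 and wild type 6.27 ± 0.21 (SD, n = 4 each), and a gap of 0.53 separated those from the other 8 groups, in which each mean overlapped the next.

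**Figure D1:**
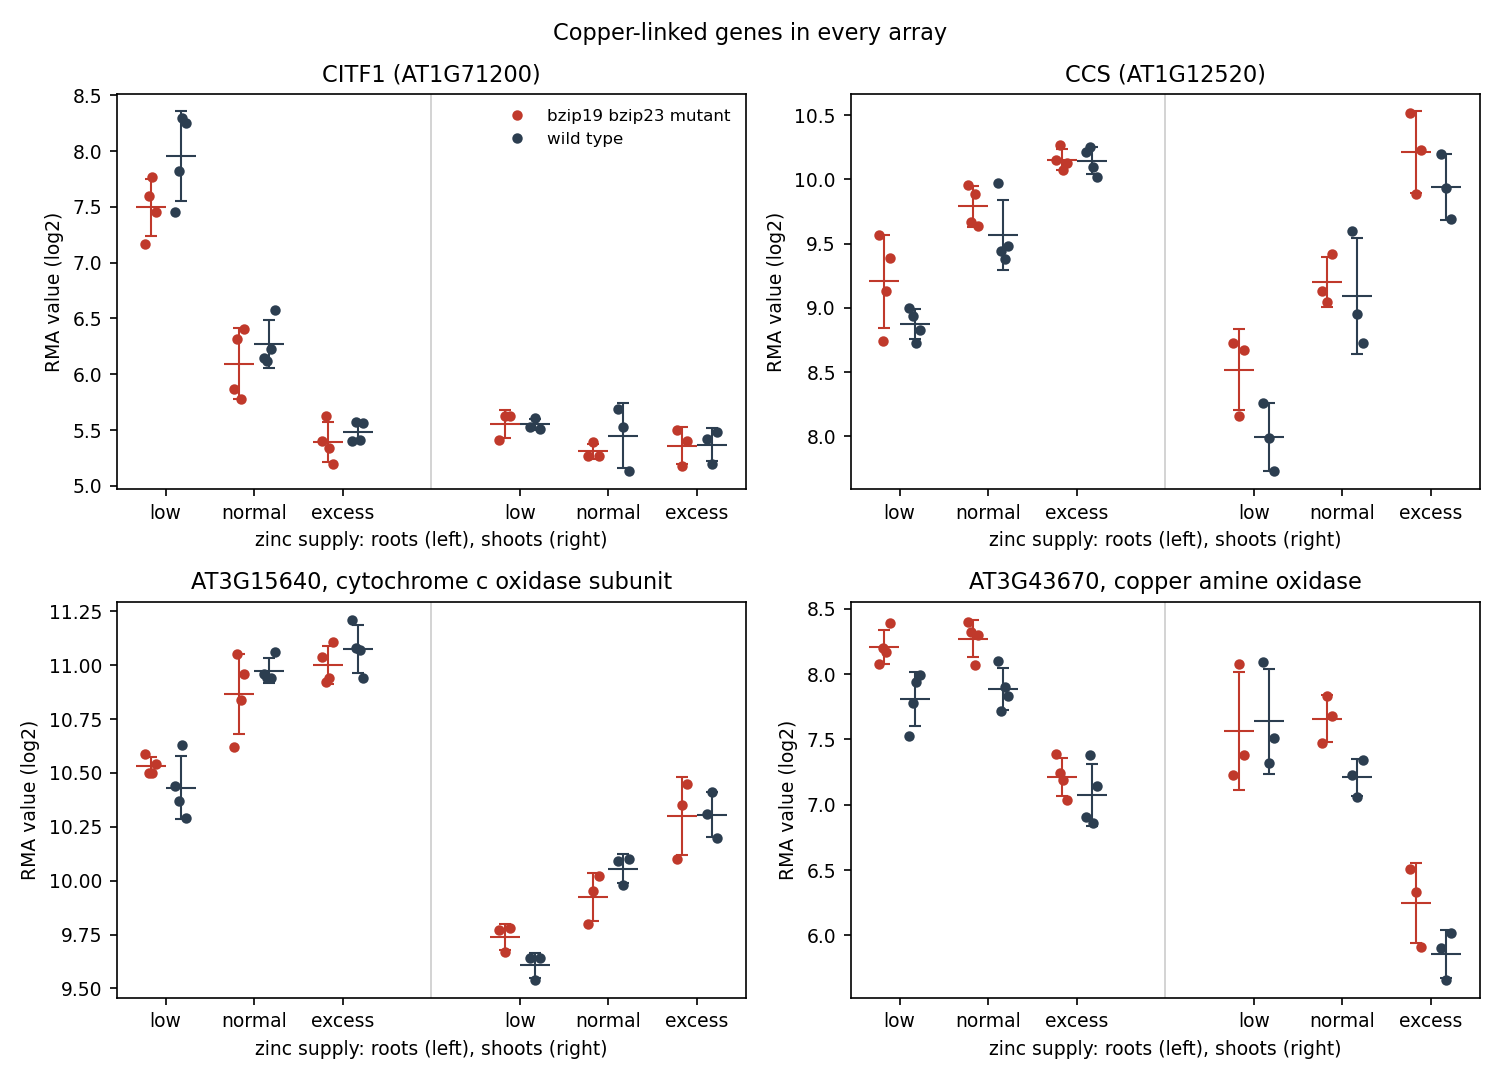
Levels of the 4 copper-linked genes in every array, as RMA values (log2) on the vertical axis of each panel. Points are arrays, horizontal bars group means and whiskers 1 SD, for the bzip19 bzip23 mutant (red, left of each pair) and wild type (dark, right), with roots (4 arrays a group) on the left side and shoots (3 arrays a group) on the right side of a panel. CITF1 steps down with zinc in roots and lies between 5.13 and 5.69 in all shoot arrays, CCS steps up with zinc in both tissues, and AT3G43670 is low at excess zinc.

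CCS delivers copper to copper/zinc superoxide dismutase, an enzyme that removes superoxide. Its values ran opposite to those of CITF1 in roots and, unlike CITF1, it followed zinc supply in shoots as well. In mutant roots CCS was at 9.57, 8.74, 9.13 and 9.39 at low, 9.96, 9.67, 9.89 and 9.64 at normal and 10.15, 10.27, 10.07 and 10.13 at excess zinc. In wild type roots CCS was at 9.00, 8.94, 8.73 and 8.83 at low, 9.97, 9.44, 9.38 and 9.48 at normal and 10.21, 10.25, 10.10 and 10.02 at excess zinc. In both genotypes the 3 supplies did not overlap, low zinc lying below normal and excess zinc above it. One wild type array at normal zinc, at 9.97, stood well above the other 3 of its group.

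Mutant shoots had CCS values of 8.73, 8.16 and 8.67 at low, 9.13, 9.05 and 9.42 at normal and 10.52, 9.89 and 10.23 at excess zinc. Wild type shoots had 8.26, 7.99 and 7.73 at low, 9.60, 8.95 and 8.73 at normal and 10.20, 9.93 and 9.69 at excess zinc. Here too the 3 supplies were apart in both genotypes. The shoot differences were at least as large as those in roots, with wider errors. CCS at low zinc differed from normal zinc by -0.58 in mutant roots and -0.69 in wild type roots (SE 0.14), and by -0.68 in mutant shoots and -1.10 in wild type shoots (SE 0.22). At excess zinc CCS was higher than at normal zinc by 0.36 in mutant roots and 0.58 in wild type roots (SE 0.14), and by 1.01 in mutant shoots and 0.85 in wild type shoots (SE 0.22). Ranked over the 12 groups, CCS was highest at excess zinc, with means of 9.94 to 10.21 that overlapped from one to the next, and lowest in low zinc shoots, at 8.52 ± 0.31 in mutant and 7.99 ± 0.27 in wild type (SD, n = 3 each).

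AT3G15640 encodes a subunit of cytochrome c oxidase, the copper-containing enzyme that passes electrons to oxygen at the end of the mitochondrial respiratory chain. It followed zinc in the direction of CCS with smaller steps. In mutant roots AT3G15640 was at 10.59, 10.50, 10.50 and 10.54 at low, 10.62, 11.05, 10.84 and 10.96 at normal and 11.04, 10.92, 10.94 and 11.11 at excess zinc. In wild type roots it was at 10.44, 10.37, 10.63 and 10.29 at low, 10.96, 10.94, 10.94 and 11.06 at normal and 11.21, 11.08, 11.07 and 10.94 at excess zinc. Low zinc roots were below normal zinc roots in both genotypes, while normal and excess zinc overlapped. The low zinc difference was -0.34 in mutant roots and -0.55 in wild type roots, and the excess zinc difference was 0.13 in mutant roots and 0.09 in wild type roots (SE 0.08 each).

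In shoots AT3G15640 differed at both supplies. Mutant shoots had values of 9.77, 9.67 and 9.78 at low, 9.80, 9.95 and 10.02 at normal and 10.10, 10.35 and 10.45 at excess zinc, and wild type shoots had 9.64, 9.54 and 9.64 at low, 10.09, 9.98 and 10.10 at normal and 10.31, 10.41 and 10.20 at excess zinc. The supplies did not overlap in either genotype. At low zinc the difference from normal zinc was -0.19 in mutant shoots and -0.45 in wild type shoots, and at excess zinc it was 0.38 in mutant shoots and 0.25 in wild type shoots (SE 0.10 each). In the order of its 12 group means every root group was above every shoot group, although low zinc roots of wild type, at 10.43 ± 0.14 (SD, n = 4), overlapped the next group, excess zinc shoots of wild type, at 10.30 ± 0.10 (SD, n = 3).

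AT3G43670 belongs to the copper amine oxidases, enzymes that use copper to oxidise amines. It was lower at excess zinc in both tissues. At low zinc its values overlapped those at normal zinc in both tissues and genotypes, without a clear opposite change of the kind for which the genes were grouped. Its values in mutant roots were 8.08, 8.20, 8.17 and 8.39 at low, 8.40, 8.32, 8.07 and 8.30 at normal and 7.39, 7.24, 7.19 and 7.04 at excess zinc. In wild type roots they were 7.53, 7.78, 7.94 and 7.99 at low, 8.10, 7.72, 7.90 and 7.83 at normal and 6.91, 7.38, 6.86 and 7.14 at excess zinc. Low and normal zinc overlapped in both genotypes, and all excess zinc root arrays were below both. The excess zinc difference was -1.05 in mutant roots and -0.82 in wild type roots, and the low zinc difference was -0.06 in mutant roots and -0.08 in wild type roots (SE 0.12 each).

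Mutant shoots had AT3G43670 values of 7.23, 8.08 and 7.38 at low, 7.47, 7.83 and 7.68 at normal and 6.51, 6.33 and 5.91 at excess zinc. Wild type shoots had 8.09, 7.32 and 7.51 at low, 7.23, 7.06 and 7.34 at normal and 5.90, 5.66 and 6.02 at excess zinc. Every excess zinc shoot array was again below the low and normal zinc arrays of its genotype. The excess zinc difference was -1.41 in mutant shoots and -1.35 in wild type shoots (SE 0.22), a 2.66-fold and a 2.55-fold lower level. At low zinc the difference was -0.10 in mutant shoots and 0.43 in wild type shoots (SE 0.22), with overlapping values in both. The wild type value of 8.09 came from the shoot array that stood apart from its group. Without that array the wild type low zinc difference was 0.21, and leaving out other arrays in turn gave up to 0.59.

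**Figure D2:**
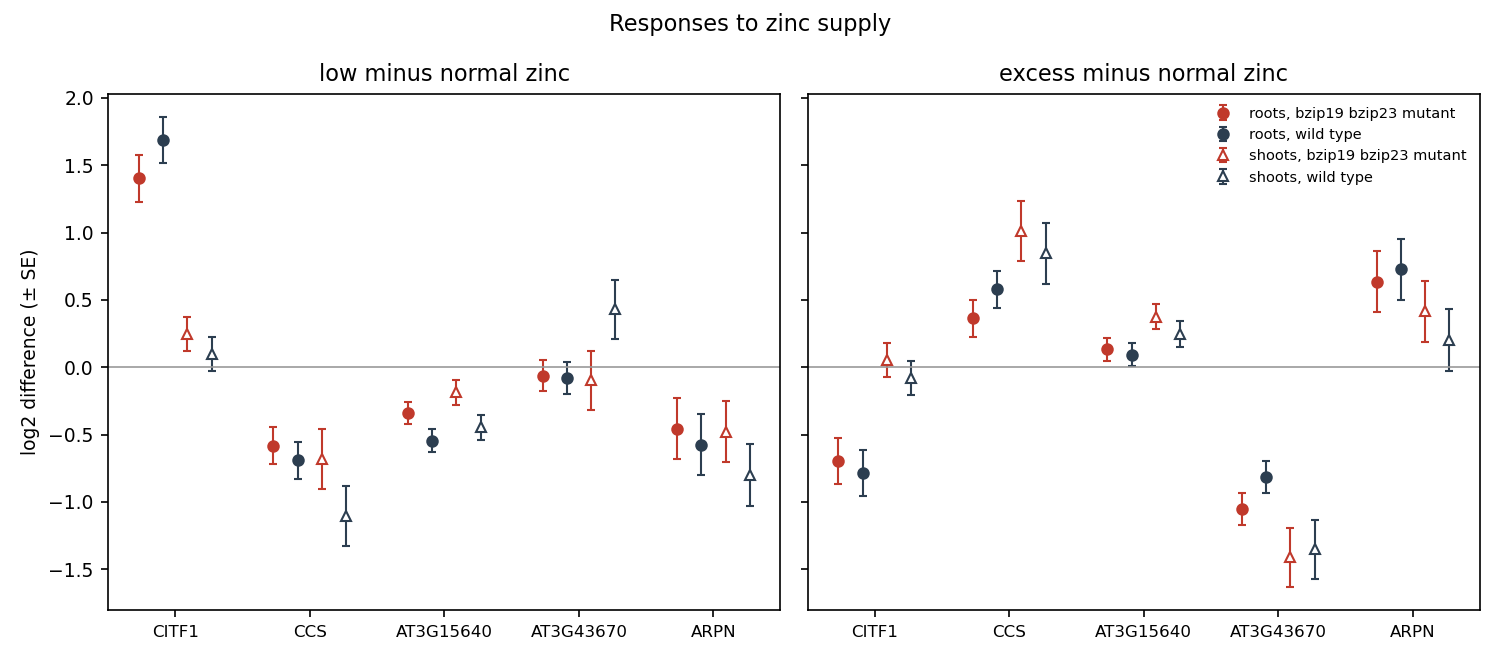
Zinc responses of the 4 genes and of plantacyanin (ARPN) as log2 differences from normal zinc (vertical axis, with bars of 1 SE from the limma fit), for low zinc (left) and excess zinc (right). Filled circles are roots and open triangles shoots, with mutant in red and wild type in dark. The CITF1 differences lie far from 0 in roots and near 0 in shoots, those of CCS, AT3G15640 and ARPN are below 0 at low and above 0 at excess zinc in all 4 sets, and AT3G43670 is far below 0 at excess zinc only.

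Because the genes were chosen on these contrasts, their counts are descriptive. At low against normal zinc 3 of the 4 genes did not overlap in mutant roots, where 4% of all probe sets did not, 3 in wild type roots (6.86% of all), 3 in mutant shoots (13% of all) and 2 in wild type shoots (13.9% of all). At excess against normal zinc 3 of the 4 did not overlap in each of mutant roots (11.3% of all), wild type roots (10.2%), mutant shoots (25.9%) and wild type shoots (18.9%). The means of CCS and AT3G15640 stepped up from low through normal to excess zinc in all 4 combinations of tissue and genotype, a pattern shown by 154 probe sets (0.677% of all). Stepping down in all 4 was shown by 138 probe sets (0.607%) and by none of these 4 genes, since CITF1 did so in 3 combinations and AT3G43670 in 1. The low and excess responses of a set share its normal zinc arrays. Without the array that stood apart in wild type roots at excess zinc, the excess zinc differences of wild type roots were -0.81 for CITF1, 0.54 for CCS, 0.09 for AT3G15640 and -0.92 for AT3G43670. Without the one in wild type shoots, the low zinc differences there were 0.11 for CITF1, -1.24 for CCS and -0.46 for AT3G15640.

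The zinc responses in the mutant lay close to those in wild type, relative to their errors. In roots the response of the mutant minus that of wild type at low zinc was -0.28 (SE 0.24) for CITF1, 0.11 (SE 0.20) for CCS, 0.21 (SE 0.12) for AT3G15640 and 0.02 (SE 0.17) for AT3G43670. At excess zinc it was 0.09 (SE 0.24) for CITF1, -0.22 (SE 0.20) for CCS, 0.04 (SE 0.12) for AT3G15640 and -0.24 (SE 0.17) for AT3G43670. In shoots at low zinc it was 0.15 (SE 0.18) for CITF1, 0.42 (SE 0.32) for CCS, 0.26 (SE 0.13) for AT3G15640 and -0.53 (SE 0.31) for AT3G43670. These values are below 2 standard errors in size, as are those of shoots at excess zinc, which ran from -0.06 to 0.17. They do not show that the genotypes respond alike, since differences of the size of the smaller responses lie within their errors.

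Between tissues, the response of roots minus that of shoots was farthest from 0 for CITF1, at 1.15 in mutant and 1.59 in wild type at low zinc and at -0.75 in mutant and -0.70 in wild type at excess zinc (SE 0.24 each). For CCS it was 0.10 in mutant and 0.41 in wild type at low zinc, and -0.65 in mutant and -0.27 in wild type at excess zinc (SE 0.26 each). For AT3G15640 the 4 values lay between -0.24 and -0.10 (SE 0.13). For AT3G43670 they were 0.03 in mutant and -0.51 in wild type at low zinc, and 0.36 in mutant and 0.53 in wild type at excess zinc (SE 0.24 each).

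Whether the levels of these genes differed between mutant and wild type at normal zinc was tested, as they were not chosen for this contrast itself. Its normal zinc arrays are those against which the zinc changes were taken, so the test is not fully independent of the choice. A difference that is not called does not show that the levels are alike. In roots at normal zinc none of the 4 was called by limma at an adjusted p under 0.05, where 13 probe sets (0.0572%) were called in all. The difference of mutant minus wild type was -0.18 for CITF1 (95% interval -0.53 to 0.18, adjusted p = 0.739), 0.23 for CCS (-0.06 to 0.51, adjusted p = 0.539) and -0.11 for AT3G15640 (-0.28 to 0.07, adjusted p = 0.651). AT3G43670 averaged 8.27 ± 0.14 in mutant roots and 7.89 ± 0.16 in wild type roots (SD, n = 4 each), a difference of 0.38 whose own interval, 0.14 to 0.63, left out 0 (unadjusted p = 0.00368) and which missed the threshold over all probe sets (limma adjusted p = 0.284). In shoots at normal zinc none of the 4 was called either, with 5 probe sets called in all (0.022%). AT3G43670 was at 7.47, 7.83 and 7.68 in mutant shoots, all above the 7.23, 7.06 and 7.34 of wild type shoots, a lack of overlap that 14.8% of probe sets shared. Its difference was 0.45 (-0.01 to 0.91, limma adjusted p = 0.645). The other 3 differed by -0.14 to 0.10 with adjusted p-values of 0.783 to 0.943.

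At low and excess zinc the genotype differences are given without a test. In roots at low zinc mutant minus wild type was -0.46 (SE 0.17) for CITF1, 0.34 (SE 0.14) for CCS, 0.10 (SE 0.08) for AT3G15640 and 0.40 (SE 0.12) for AT3G43670. The lowest mutant root value of AT3G43670 at low zinc, 8.08, was above the highest in wild type roots, 7.99, as was so in either direction for 8.92% of probe sets. At excess zinc in roots the 4 differences lay between -0.09 and 0.14. In shoots at low zinc CCS differed by 0.52 (SE 0.22) and AT3G15640 by 0.13 (SE 0.10). The AT3G15640 values had 9.67 as the lowest in mutant and 9.64 as the highest in wild type, and 22.4% of all probe sets did not overlap in that comparison. CITF1 differed there by 0.01 (SE 0.13) and AT3G43670 by -0.08 (SE 0.22). At excess zinc in shoots the differences were -0.01 for CITF1 (SE 0.13), 0.27 for CCS (SE 0.22), -0.003 for AT3G15640 (SE 0.10) and 0.39 for AT3G43670 (SE 0.22).

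All 4 genes were higher in roots than in shoots at normal zinc in both genotypes, in comparisons in which limma called 64.1% of all probe sets in mutant and 60.8% in wild type, with 36.2% of all in mutant and 35.6% of all in wild type being higher in roots. AT3G15640 averaged 10.87 ± 0.19 in mutant roots and 9.92 ± 0.11 in mutant shoots (SD, n = 4 and 3), a log2 difference of 0.95 (SE 0.09, limma adjusted p = 9.88e-12), and its difference in wild type was 0.92 (adjusted p = 1.86e-11). CITF1 was higher in roots by 0.78 in mutant (adjusted p = 9.67e-05) and by 0.82 in wild type (adjusted p = 5.20e-05), with SE 0.17 each. The choice looked at zinc changes by tissue and those of CITF1 lay mainly in roots, so its tissue test is not independent of the choice. AT3G43670 was higher by 0.61 in mutant (adjusted p = 0.00218) and by 0.68 in wild type (adjusted p = 0.000777), with SE 0.17 each. CCS was higher by 0.59 in mutant (adjusted p = 0.00546) and by 0.47 in wild type (adjusted p = 0.0269), with SE 0.18 each. The CCS call in wild type was lost when the high first root array at normal zinc was left out (0.34, adjusted p = 0.128), and also without the second (0.40, adjusted p = 0.108) or the third (0.29, adjusted p = 0.229) wild type shoot array. In whole organs a smaller share of expressing cells and less RNA per cell cannot be told apart, and tissue and date label cannot be told apart either.

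Across arrays CITF1 and CCS were near mirror images in roots. Their Pearson correlation over the 24 root arrays was -0.94, the lowest r that CITF1 had with any probe set paired with 1 gene. Much of that comes from the group means that chose these genes: with group means removed it was -0.50. Over the 18 shoot arrays the correlation of CITF1 and CCS was -0.34, and 0.42 with group means removed. CCS and AT3G15640 correlated at 0.79 in roots and 0.89 in shoots, and at -0.11 and 0.07 with group means removed. These are descriptions over arrays that share groups and normalisation, with no test.

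**Figure D3:**
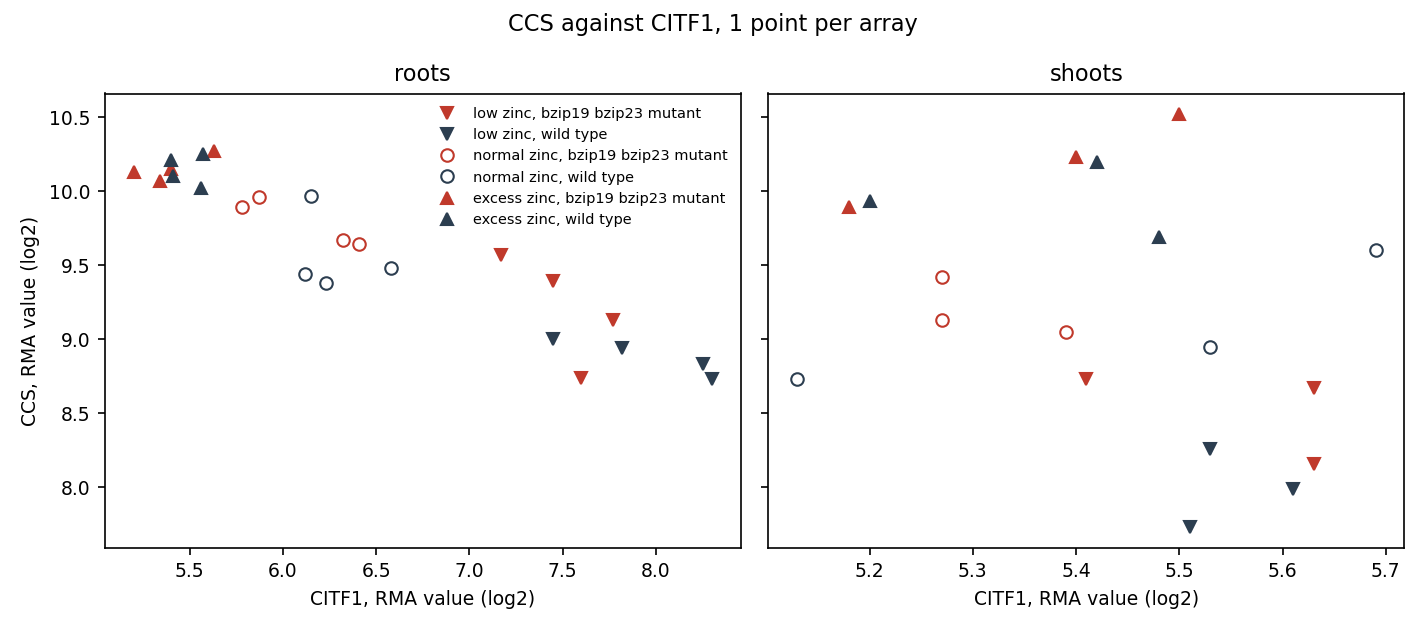
CCS (vertical axis) against CITF1 (horizontal axis), both as RMA values (log2), 1 point per array, for the 24 root arrays (left) and the 18 shoot arrays (right), whose horizontal axes have different ranges. Down triangles are low, open circles normal and up triangles excess zinc, with mutant in red and wild type in dark. In roots the supplies line up from low zinc at the lower right to excess zinc at the upper left, and in shoots they differ in CCS over a narrow range of CITF1.

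The other genes of the copper lists serve as the surroundings of the 4. The lists, drawn up with earlier results of these arrays known, held 89 further genes, and 20 of them were measured, on 22 probe sets: 3 of 10 copper chaperones, 7 of 16 cytochrome c oxidase genes, 5 of 8 copper amine oxidases, 1 of 17 laccases and 4 of 10 blue copper proteins and ascorbate oxidases. None of the other regulators, of the uptake and reduction genes, of the copper ATPases or of the superoxide dismutases was among the probe sets paired with 1 gene. Of the 22 probe sets, 3 rose and 1 fell in wild type roots at excess zinc (limma, adjusted p under 0.05), where 9.7% of all probe sets were called. In the other 7 zinc comparisons limma called 0 of the 22. In each of them 0 to 3 of the 22 had an unadjusted limma p under 0.05, beside 6.9% to 20% of all probe sets. Of all probe sets, limma called 0.0484% in mutant roots and 0.132% in wild type roots at low zinc, 5.07% in mutant roots at excess zinc, 0.0659% in mutant shoots and 0.703% in wild type shoots at low zinc, and 3.2% in mutant shoots and 0.62% in wild type shoots at excess zinc. The median difference of the 22 was -0.01 in wild type roots at excess zinc, beside -0.001 over all probe sets, and its farthest from 0 in any zinc comparison was 0.15 in mutant shoots at excess zinc, beside -0.01 over all.

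Plantacyanin (ARPN, AT2G02850), a blue copper protein, was the listed gene whose means moved like CCS. From low through normal to excess zinc it averaged 7.94, 8.40 and 9.03 in mutant roots and 7.74, 8.31 and 9.04 in wild type roots. In shoots it averaged 8.02, 8.50 and 8.91 in mutant and 7.86, 8.66 and 8.86 in wild type. ARPN thus stepped up in all 4 combinations, as CCS and AT3G15640 did. Only the rise in wild type roots at excess zinc passed the test, at 0.73 (SE 0.23, adjusted p = 0.0439), with single values of 9.18, 8.14, 9.90 and 8.92 against 8.05, 8.45, 8.35 and 8.39 at normal zinc. The second value, which lies within the normal zinc range, is from the array that stood apart. Without the third array at excess zinc the ARPN difference was 0.44 (adjusted p = 0.163), and the call was also lost in most other alternatives.

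Among the other cytochrome c oxidase genes, AT1G80230 had root differences with the signs of AT3G15640, none of them called. They were -0.03 in mutant roots and -0.16 in wild type roots at low zinc, and 0.17 in mutant roots and 0.12 in wild type roots at excess zinc (SE 0.10 each, adjusted p = 0.428 to 0.999). In shoots AT1G80230 differed at low zinc by 0.02 in mutant and -0.12 in wild type, and at excess zinc by 0.20 in mutant and -0.04 in wild type, again with no call. AT1G52710 differed by -0.28 to 0.35 over the 8 zinc comparisons, with no call in any. AT5G61310 of the same list fell in wild type roots at excess zinc, by 0.63 (adjusted p = 0.0349), where the array that stood apart was part of the group, and without that array the difference was -0.37 (adjusted p = 0.124). In mutant roots at excess zinc AT5G61310 differed by -0.02 (adjusted p = 0.975). Of the 7 cytochrome c oxidase genes 6 had a negative difference in wild type roots at excess zinc and 2 in mutant roots. Of all probe sets 50.2% were below 0 in wild type and 58.7% in mutant roots, and AT3G15640 was above 0 in both. In the wild type group, which held the array that stood apart, AT2G47380, AT3G62400, AT4G37830 and AT5G57815 had wide spreads (SD 0.70, 0.54, 0.43 and 0.56). The part of that array in these signs was not tested. None of the 7 probe sets of other copper amine oxidases was called in any zinc comparison, and the CuAO1 gene (AT1G62810) differed by -0.30 in mutant roots and 0.04 in wild type roots at excess zinc, where AT3G43670 differed by -1.05 and -0.82.

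**Figure D4:**
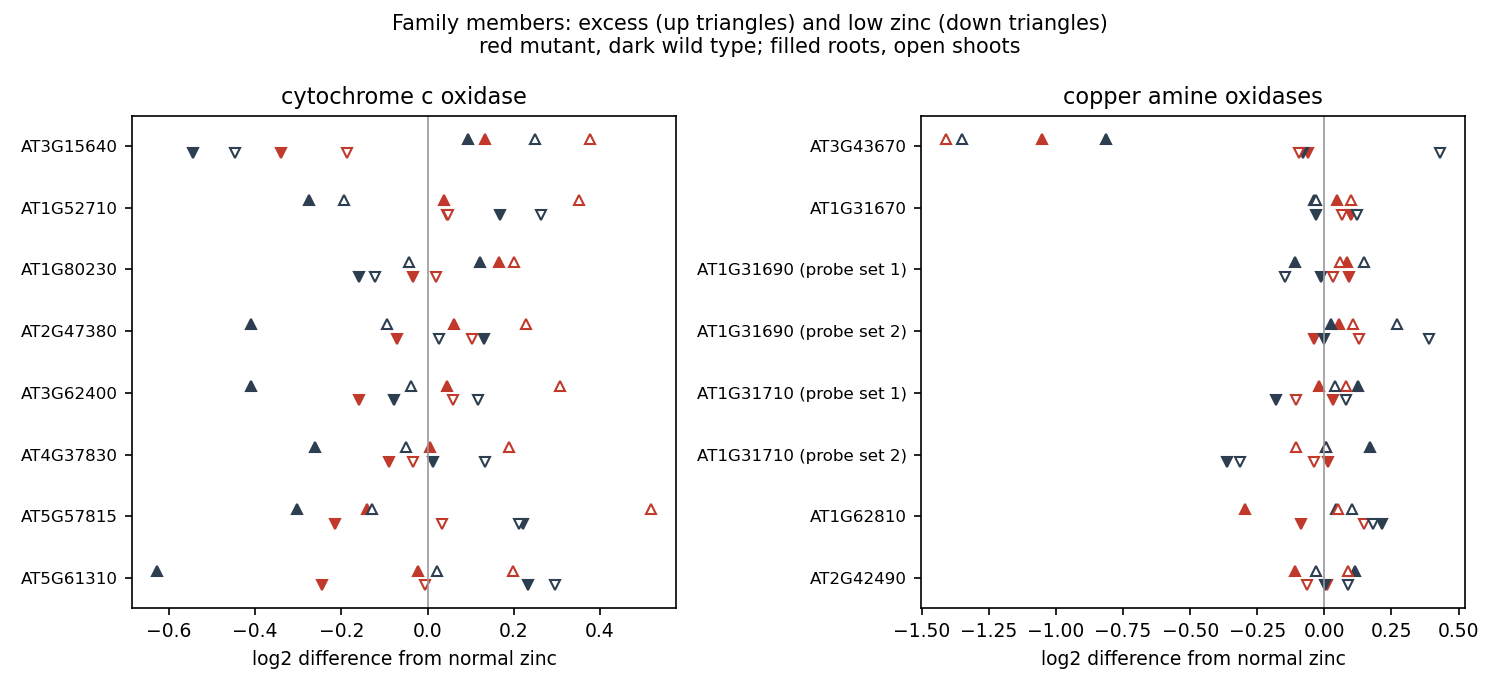
Log2 differences from normal zinc (horizontal axis) of AT3G15640 beside the other measured cytochrome c oxidase genes (left) and of AT3G43670 beside the other measured copper amine oxidases (right), 1 row per probe set. Up triangles are excess and down triangles low zinc, red mutant and dark wild type, filled roots and open shoots. AT3G15640 has its low zinc values left of 0 and its excess zinc values right of 0, and the excess zinc values of AT3G43670, from -1.41 to -0.82, lie left of all others in its panel.

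Beyond these families, AT1G02410 of the chaperone list rose in wild type roots at excess zinc by 0.28 (SE 0.08, adjusted p = 0.0227) and had a difference of 0.23 in mutant roots (adjusted p = 0.0875). AT4G39830, of the list of blue copper proteins and ascorbate oxidases, rose in wild type roots at excess zinc, with 7.13, 7.87, 7.26 and 6.81 at excess against 6.27, 6.47, 6.16 and 5.91 at normal zinc (difference 1.07, SE 0.20, adjusted p = 0.000881). In mutant roots its excess zinc values of 6.17, 6.59, 5.98 and 6.58 overlapped the normal zinc values of 6.16, 6.37, 5.95 and 6.22 (difference 0.15, adjusted p = 0.778). Mutant minus wild type in roots at excess zinc was -0.94 for AT4G39830 (limma adjusted p = 0.0225, with 1.48% of probe sets called), and the difference of the excess responses, -0.92, missed the threshold (adjusted p = 0.53). Its excess zinc response in roots exceeded that in shoots by 0.56 in mutant (adjusted p = 0.334, with 4.8% of probe sets called) and by 1.45 in wild type (adjusted p = 0.0036, with 4.61% called). In shoots at low zinc AT4G39830 was higher in mutant than in wild type by 0.95 (adjusted p = 0.0255, with 5.88% of probe sets called). Between roots and shoots at normal zinc 15 of the 22 listed probe sets were called in mutant, 10 of them higher in roots, and 16 in wild type, again 10 higher in roots, beside 64.1% of all probe sets called in mutant and 60.8% in wild type. Between genotypes at normal zinc limma called 0 of the 22 in roots and in shoots, with 3 in roots and 0 in shoots at an unadjusted p under 0.05, beside 11.7% of all probe sets in roots and 7.9% in shoots.

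At excess zinc all 3 measured photosynthetic tissue markers had negative differences in roots of both genotypes. The medians were -0.36 in mutant and -0.34 in wild type roots. Of the 3, limma called 1 in mutant roots and 1 in wild type roots, beside 5.07% and 9.7% of all probe sets. The 2 measured root tissue markers had medians of 0.355 in mutant and 0.258 in wild type roots, with 0 called. Between genotypes in roots limma called 0 of the photosynthetic markers at normal or excess zinc. Their median of mutant minus wild type was 0.63 at normal and 0.74 at excess zinc, with 3 of 3 above 0 at each supply. At each supply 2 had an unadjusted limma p under 0.05, beside 11.7% of all probe sets at normal and 17% at excess zinc. The root tissue markers had medians of -0.27 at normal and -0.17 at excess zinc in the same comparisons. AT3G43670, which was higher in roots than in shoots, differed by 0.38 between genotypes in the same roots at normal zinc. The corresponding medians of the photosynthetic markers in shoots were -0.11 at normal and -0.07 at excess zinc. The actin 3' to 5' signal difference, a measure of RNA quality, had group means of 2.73 in mutant and 2.80 in wild type roots at excess zinc, and of 3.02 in mutant and 2.91 in wild type roots at normal zinc. The part of the markers and of RNA quality in the results above was not tested.

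The probe sets whose levels were most like those of each gene over the 24 root arrays were found among all that are paired with 1 gene. For CITF1 they were AT1G24620 (r = 0.85), AT5G15950 and AT1G74440 (0.83 each) and AT4G09130 (0.81), and the lowest r after CCS was that of CP5 (-0.86). For CCS they were AT1G18910 (0.82), TET5 and GI (0.80 each), of which GI is the clock-associated gene GIGANTEA, and CP5 (0.79), and at the opposite end AT1G24620 (-0.89) stood beside CITF1. CITF1 and CCS thus shared the probe sets of AT1G24620 and CP5 with opposite signs, which largely follows from their own r of -0.94 over these arrays. For AT3G15640 they were AT3G19680, AT2G20790 and AT1G70280 (0.82 each) and AT5G62720 (0.81), with AT3G14280 and AT2G38640 lowest (-0.87 each).

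Of the 4 genes AT3G43670 had the highest positive correlations in roots. Over root arrays AT3G05900 and AT3G49160 reached r = 0.91, AT5G06800 0.89 and AT3G29430 0.88, and AT2G01300 and AT3G58060 were lowest at -0.93. Over the 18 shoot arrays AT3G49160 came first again at 0.94, followed by the stromal ascorbate peroxidase gene SAPX (0.87) and by AT4G38560 and AT1G34420 (0.86 each), with AT1G47400 (-0.92) and AT3G15720 (-0.90) lowest. For CCS in shoots the highest were AT4G30690 and the pyruvate decarboxylase gene PDC2 (0.92 each), AT3G47160 (0.91) and the protochlorophyllide oxidoreductase gene PORB (0.90), and the lowest AT1G18460 and the glucosyltransferase gene IAGLU (-0.89 each). None of the CCS neighbours in roots was among those in shoots. All of these are correlations over arrays in which the zinc groups differ, and they are given with no test.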

How the data were processed

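The authors deposited 1 RMA value on the log2 scale per probe set and array, and per the submitters' processing notes used RMA and limma, in versions that the labels do not give. The table held 22810 probe sets, of which 64 controls were left out and 22746 tested, with no filter. Of these, 13513 (59.4%) were paired with 1 gene through the platform annotation, 503 with several and 8730 with none named, and 13436 matched a RefSeq locus (TAIR10.1, used for names). Sequences and coordinates were not used here. For arrays, their number limits the precision.

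With limma 3.58.1 in R 4.3.3 (lmFit, eBayes), the 24 root and the 18 shoot arrays were fitted separately with 1 mean per group, and tissues were compared in 1 fit of all 42. The threshold for a call was an adjusted p under 0.05 (two-sided, Benjamini-Hochberg over 22746 probe sets). The fit was also run on simulated data with independent noise, as a check of the code only. Those data held no deviating arrays and no date effects. Tables and plots used Python 3.11.15, pandas 2.3.3 and matplotlib 3.10.9.

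The members and gene lists were chosen with earlier results of these data known. Named were the 4 members, listed copper genes called in at least 1 zinc comparison, up to 4 per list called in none, the 4 highest and 2 lowest correlations per member over root arrays (for CCS and AT3G43670 also shoot arrays), bZIP19 and ZIP9. Same-numbered arrays of different groups did not deviate together: their median correlation was -0.05 over 60 pairs in roots and 0.01 over 45 in shoots, so the numbers were not taken to pair samples. The highest correlation between any 2 arrays was 0.9972, and none were counted as duplicates. Alternatives left out each array, added the replicate number as a block, changed the arrays in the fit, normalised within the tissue, filtered low probe sets, or used 1 date label.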

Additional observations from a re-analysis of the deposited data

Results flagged for a closer look

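One CCS value was far from the others of its group. In wild type roots at normal zinc the first replicate had a CCS value of 9.97, while the median of the other 3 was 9.44, and the gap made up 0.838 of the group's range. Chance puts about 1 group in 20 past this limit. Without that array the CCS difference of wild type roots from normal zinc was -0.56 at low and 0.71 at excess zinc, and mutant minus wild type in roots at normal zinc was 0.36 (limma adjusted p = 0.154). AT3G43670 in the same comparison of genotypes was then at 0.45 (adjusted p = 0.0632).

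The response to excess zinc differed between tissues for AT4G39830 in wild type, by 1.45 on the log2 scale (roots minus shoots, limma adjusted p = 0.0036, with 4.61% of all probe sets called), with a difference of 1.07 from normal zinc in roots and -0.38 in shoots. It also differed for the zinc transporter gene ZIP9 (AT4G33020), by 1.19 in mutant (adjusted p = 0.0016, with 4.8% of all called) and 0.99 in wild type (adjusted p = 0.00752), with excess zinc differences of 1.14 in mutant roots and -0.05 in mutant shoots, and of 1.01 in wild type roots and 0.02 in wild type shoots. In shoots excess zinc and date label cannot be told apart.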

How the results depend on the processing

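The zinc differences of the 4 genes that were larger than their errors kept their direction under every alternative run. Left out 1 at a time, arrays moved CITF1 at low zinc between 1.30 and 1.51 in mutant roots and between 1.57 and 1.86 in wild type roots, and AT3G43670 at excess zinc in shoots between -1.54 and -1.24 in mutant and between -1.43 and -1.25 in wild type. The low zinc difference of AT3G43670 in wild type roots ranged from -0.14 to 0.01. Mutant against wild type at normal zinc called none of the 4 under any alternative; the CCS difference in shoots ranged from -0.08 to 0.36 and was negative without mutant replicate 3 (-0.007) or wild type replicate 3 (-0.077). CCS in wild type roots against shoots ranged from 0.29 to 0.72 leaving out arrays, and in a fit of the 2 groups alone it was 0.47 (adjusted p = 0.0697). With the replicate number as a block, no call of the 4 genes changed, and the ARPN rise lost its call (0.73, adjusted p = 0.0545).

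Counts moved more. The listed copper probe sets called in wild type roots at excess zinc (4) ranged from 1 to 5 leaving out arrays, and were 1 with the 2 groups alone, 2 with all 42 arrays in 1 fit and 1 with the arrays of the shared date label. Wild type roots at low zinc gave 1 with the 2 groups alone, and leaving out 1 array gave 0 to 1 in mutant roots at excess zinc and between genotypes in roots. AT4G39830 kept its call in wild type roots at excess zinc under all alternatives run, and its other calls were not run under alternatives. Over all probe sets, mutant against wild type at normal zinc (13 in roots, 5 in shoots) gave 11 to 348 in roots and 2 to 3 in shoots leaving out arrays, 21 and 37 with all 42 arrays, and 3 in shoots with the 2 groups alone. The 348 were called without the first wild type root array. Leaving out arrays gave 5 to 31 calls in mutant roots (11 with all arrays) and 15 to 66 in wild type roots (30) at low zinc, 600 to 1135 in mutant roots (1153) and 1545 to 2915 in wild type roots (2206) at excess zinc, 4 to 70 in mutant shoots (15) and 39 to 153 in wild type shoots (160) at low zinc, and 124 to 396 in mutant shoots (729) and 35 to 206 in wild type shoots (141) at excess zinc. The cause of these shifts was not tested.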
